A study of Sus scrofa with 20 samples.

Results

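Transcripts of 9 transcription factors of the biliary and pancreatic endoderm were measured in biliary tree stem cells of the pig (pBTSCs) and in cells sorted from pig liver. The genes are PDX1, NKX6-1, ONECUT1, ONECUT2, HHEX, GATA4, GATA6, TBX3 and ELF3. They were taken from the table of normalized counts by gene name, where each of the 9 names has a row, out of 25764 genes in all. RNA with a poly(A) tail was sequenced from 20 libraries, each of which carries a label number. The pBTSC group has 5 libraries (S2, S7, S11, S15 and S20). Sorted liver cells make up the other 15, namely 4 libraries of CD45-/EpCAM+ cells (S4, S9, S13 and S19), 2 of CD45-/EpCAM- cells (S5 and S14), 5 of CD45+ cells (S3, S8, S12, S18 and S23), 2 of CD31+ cells (S16 and S21) and 2 of CD146+ cells (S17 and S22). CD45 is the leukocyte common antigen, EpCAM an epithelial adhesion molecule, CD31 an antigen of endothelium, and CD146 an adhesion molecule of vessel walls and mesenchyme.

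The pigs were newborn and untreated. By the study's sample list, pBTSC libraries S2, S7 and S11 came from piglets with a transgene for histone H2B joined to green fluorescent protein, placed at the ACTB locus and active in all cells, and S15 and S20 from wild-type piglets. The labels call the tissue gallbladder, whereas the study's text on sequencing names gallbladder, cystic duct and common duct. The study's quality table lists RNA integrity numbers, which fall as RNA degrades, for pBTSC samples. They were low, lowest in S7 and S11, higher in S2 and highest in S20, and not available for S15. No liver library is listed there, and the part of RNA quality in the levels was not tested. The donor piglet of each liver library is not given, so replicates are treated as separate samples although some liver libraries may share a piglet, and p-values measure the spread between these libraries.

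The liver, the bile ducts and the ventral pancreas arise from neighbouring parts of the foregut endoderm, and the factors described here act in that choice of fate. HHEX is needed for the liver bud and the extrahepatic biliary tree, ONECUT1 for the bile ducts, the gallbladder and the endocrine pancreas, and PDX1 for the pancreas. GATA4 and GATA6 are zinc finger factors that act early in liver and pancreas. The genes thus mark shared descent more than 1 mature cell type, and several of them are also active in hepatocytes, endothelium or mesenchyme.

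Depth was estimated from the value of 1 read, since low values cluster at whole multiples of it. In 17 libraries the estimate lay between 21200000 and 77800000 reads. The other 3 libraries were shallow, with 1570000 reads in pBTSC library S15, 801000 in CD45-/EpCAM+ library S13 and 455000 in CD146+ library S22, where 1 read is worth 12.6, 25.7 and 52.2 normalized counts. A value at or under 3 reads was taken as the floor, which covers counting error only. Before the levels of single genes, the sorted labels were set against their antigens. PTPRC, the gene of CD45, lay at 424 to 2687 normalized counts in CD45+ liver cells, at 450 to 3027 in CD45-/EpCAM+ cells and at 534 to 2139 in pBTSCs. PECAM1, the gene of CD31, was at 20102 to 25291 in CD31+ liver cells, below the 28048 to 36576 of the pBTSCs. EPCAM was at 884 to 2075 in pBTSCs, 1205 to 1779 in CD45-/EpCAM+, 491 to 1090 in CD45-/EpCAM-, 1175 to 2232 in CD45+, 1155 to 1161 in CD31+ and 1032 to 1052 in CD146+ cells. MCAM, the gene of CD146, was at 4615 to 5226 in CD146+ cells and 4331 to 7656 in pBTSCs. None of these transcripts set its own sort apart from all other liver groups, although both CD45-/EpCAM- libraries lay below all CD45-/EpCAM+ libraries for EPCAM. The summed level of 10 hepatocyte markers was 961646 to 2732963 normalized counts across all 15 liver libraries and 27144 to 72644 in pBTSCs, so that each sorted liver group carried hepatocyte transcripts. The summed level of 9 epithelial and bile duct markers was 26608 to 82634 in pBTSCs and 13952 to 51462 in liver (against CD45-/EpCAM+ cells 1 of the 9 was called higher and 3 lower). That of 8 endothelial markers was 65226 to 78641 and 25114 to 140056 (1 higher and 2 lower against CD45-/EpCAM+ cells). That of 8 leukocyte markers was 4396 to 9409 and 18617 to 76332. Single leukocyte markers went both ways, with 1 called higher and 4 lower in pBTSCs against CD45-/EpCAM+ cells, and 3 and 3 against CD146+ cells.

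**Figure D1:**
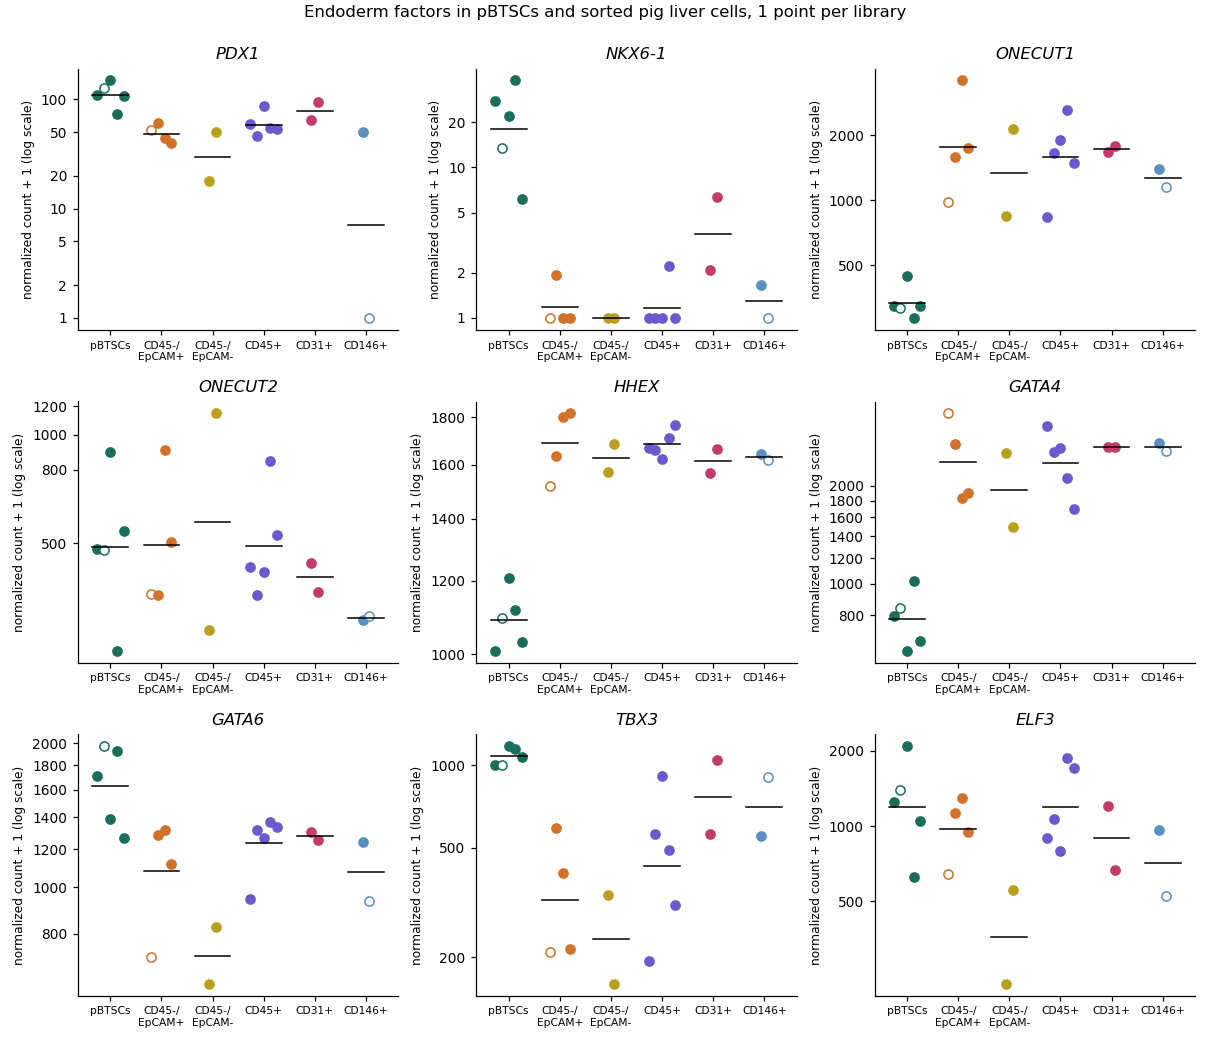
Normalized count + 1 (log axis, panels with their own range) of the 9 factors in each library, by group. Points are libraries, open points are the 3 shallow ones, and bars are the group means on the log scale. ONECUT1, GATA4 and HHEX lie lower in all 5 pBTSC libraries than in all 15 liver libraries, while ONECUT2 overlaps in every group.

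3 questions were asked of each factor, namely whether its level in pBTSCs differed from each sorted liver group, whether it differed among the liver groups, and whether its pairs of related genes kept the same balance. Levels were compared with limma on log2(normalized count + 1), with all 6 groups in 1 fit and Benjamini-Hochberg adjustment over 15576 genes. Calls required an adjusted p under 0.05 together with a log2 fold change beyond 1 in either direction. All 9 factors reached the minimum of 10 normalized counts in 2 libraries that testing required. NKX6-1 reached it through pBTSC libraries alone and so had to differ. Counts of factors are therefore given over the other 8, except where NKX6-1 or all 9 are named. The calls of NKX6-1 lend these counts no support.

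Against CD45-/EpCAM+ liver cells, ONECUT1 and GATA4 were called lower and TBX3 higher in pBTSCs among the 8 factors, where 10.3% of all genes tested were called lower and 14.8% higher. In the comparison with CD45-/EpCAM- liver cells ONECUT1 and GATA4 were again lower, and GATA6, TBX3 and ELF3 were higher, beside 16.6% and 20% of all genes. Against CD45+ liver cells the calls were ONECUT1 and GATA4 lower and TBX3 higher, beside 9.54% and 11%. Of the 8, ONECUT1 and GATA4 alone were called against CD31+ cells, both lower, where 7.62% of genes were lower and 6.73% higher. Against CD146+ cells ONECUT1 and GATA4 were lower and PDX1 higher, beside 7.75% and 14.5%. By another count, of factors whose pBTSC libraries did not overlap those of a liver group, 3 lay lower in each comparison (ONECUT1, GATA4 and HHEX), beside 14.1%, 30%, 13.5%, 20.6% and 16.8% of all genes in the order of groups just given. Factors that lay higher without overlap numbered 2 (PDX1 and TBX3), 4 (these and GATA6 and ELF3), 1 (TBX3), 0 and 3 (PDX1, TBX3 and GATA6), beside 19.2%, 33.6%, 17.8%, 27.4% and 25.4%. For PDX1 this holds by deposited values only against CD45-/EpCAM+ and CD146+ cells. Shallow S13 and S22 were under floors of 77.1 and 156 there, above the 71.9 of pBTSC library S20. The PDX1 call against CD146+ cells also rests on S22. The median log2 fold change of the 8 factors against CD45-/EpCAM+ cells was 0.14, beside 0.08 over the genes tested. The shares of all genes depend on single libraries in the small groups: the number called came from 5698 to 3390 without S5 against CD45-/EpCAM- cells, from 2236 to 1018 without S21 against CD31+ cells and from 3462 to 1152 without S22 against CD146+ cells. All 5 comparisons share the same pBTSC libraries. In bulk libraries, fewer cells that express a gene and less RNA per cell cannot be told apart.

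**Figure D2:**
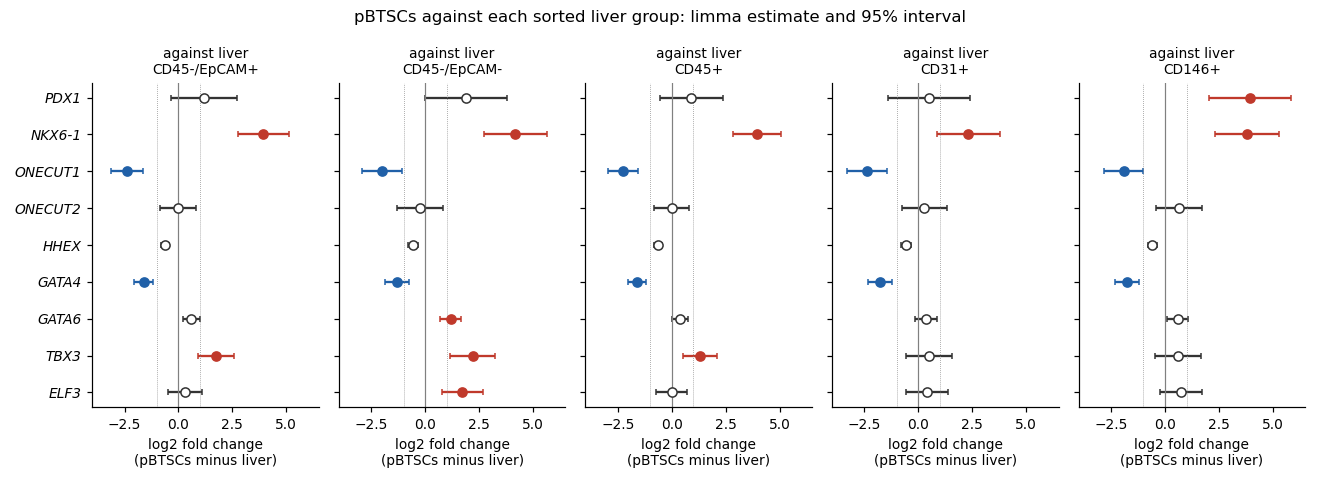
Log2 fold change (pBTSCs minus liver) of each factor against each sorted liver group, with the 95% interval from limma. Red points were called higher, blue points lower, and open points were not called, and dotted lines mark a log2 fold change of 1 either way. ONECUT1 runs from -2.40 to -1.92 and GATA4 from -1.76 to -1.32 across the 5 groups, while the intervals of ONECUT2 span 0 in all of them.

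PDX1 is a homeobox factor of the pancreas and duodenum that also marks stem cells of the biliary tree. It stood at 147, 105, 109, 126 and 71.9 normalized counts in pBTSC libraries S2, S7, S11, S15 and S20, where the value of S15 rests on 10 reads. In liver it was at 43.2, 38.3, 51.4 and 59.3 in CD45-/EpCAM+ libraries S4, S9, S13 and S19 (that of S13 under its floor of 77.1), at 48.6 and 16.7 in CD45-/EpCAM- cells, and between 44.6 and 84.7 with a median of 52.9 in CD45+ cells. Liver was thus not free of PDX1 transcripts, since 13 of the 15 liver libraries lay above their floor. The CD31+ libraries S16 and S21 had 63.9 and 93.8, and the CD146+ libraries S17 and S22 had 49.4 and 0. The 0 of S22 stands beside a floor of 156 normalized counts in that library, so it cannot be placed below the rest. All 5 pBTSC libraries were above every CD45-/EpCAM+, CD45-/EpCAM- and CD146+ library by the deposited values, and 2 of the 15 liver libraries (S21 and S23) fell within the pBTSC range. In the fit of all libraries PDX1 was higher by 1.18 on the log2 scale than in CD45-/EpCAM+ cells (SE 0.73, adjusted p = 0.213 from limma) and by 1.89 than in CD45-/EpCAM- cells (SE 0.91, adjusted p = 0.0929), which did not pass. This lack of a call rested on the CD146+ pair: without S17 the first difference was 1.18 with an adjusted p of 0.00743 and the second 1.89 with 0.00105, and without S22 the adjusted p-values were 0.00687 and 9.63e-04. Conversely, the call against CD146+ cells, 3.95 (SE 0.91, adjusted p = 0.00398), came to 1.12 with an adjusted p of 0.254 once S22 was left out, and to 6.78 without S17, which leaves S22 alone. Without all 3 shallow libraries PDX1 was higher by 1.17 than in CD45-/EpCAM+ cells (adjusted p = 0.0187) and by 1.84 than in CD45-/EpCAM- cells (adjusted p = 0.00182).

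NKX6-1 acts below PDX1 in the making of beta cells. It was the scarcest of the 9 genes in read number, with 21.1, 5.16, 26.7, 12.6 and 36.9 normalized counts in pBTSC libraries S2, S7, S11, S15 and S20, or about 93, 20, 42, 1 and 77 reads. Of the 15 liver libraries 10 listed it at 0 and 14 were at or under their floor, the exception being CD31+ library S21 with 5.34 normalized counts, about 7 reads. Both CD45-/EpCAM- libraries were at 0, and the median of the 4 deep pBTSC libraries, 23.9, lay at least 5.59-fold above the higher floor of that pair, 4.28. NKX6-1 transcripts were therefore detected in the 4 deep pBTSC libraries, S7 having the least and S20 the most, and were near the limit of detection in liver. The log2 fold change ran from 2.32 (SE 0.70, CD31+ cells) to 4.18 (SE 0.70, CD45-/EpCAM- cells). Its size depends on the pseudocount, since most liver values were at or under the floor. NKX6-1 was tested through its pBTSC values alone and had to differ, so its tests lend no support. Even so, the call against CD31+ cells was lost without any one of S2 (2.25), S11 (2.17) or S20 (2.05). Without S16 the log2 fold change was 1.51, with S21 alone in that group.

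ONECUT1, also named HNF6, is a factor of hepatocytes, bile ducts and the pancreas. Its levels were 443, 322, 323, 314 and 284 normalized counts in pBTSC libraries S2, S7, S11, S15 and S20. The CD45-/EpCAM+ libraries S4, S9, S13 and S19 had 3579, 1735, 977 and 1585, and the CD45-/EpCAM- libraries S5 and S14 had 2130 and 842. All sorted liver groups lay above the pBTSCs without overlap, the lowest liver library being the CD45+ library S12 at 829.9. CD45+ cells reached from there to 2612 with a median of 1658, CD31+ cells had 1674 and 1782, and CD146+ cells 1393 and 1148. ONECUT1 was lower in pBTSCs by 2.40 than in CD45-/EpCAM+ cells, a 5.27-fold difference (SE 0.35, adjusted p = 3.94e-05 from limma). Over the other 4 groups the log2 fold change lay between -2.37 and -1.92, with adjusted p-values up to 0.00355. Without S5, CD45-/EpCAM- cells were left with S14 alone, and the log2 fold change there was -1.34 with an adjusted p of 0.0733.

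ONECUT2, a close relative of ONECUT1 that shares its DNA-binding domain type, overlapped in every group. The pBTSC libraries held 893, 538, 479, 477 and 250.1 normalized counts in the order S2, S7, S11, S15 and S20. Liver reached from 285.9 in S14 to 1146 in S5, both of them CD45-/EpCAM- libraries, and 13 of the 15 liver libraries lay within the pBTSC range. No comparison was called. The log2 fold change was -0.02 against CD45-/EpCAM+ cells (95% interval -0.86 to 0.83, adjusted p = 0.981 from limma), -0.23 against CD45-/EpCAM- cells (-1.29 to 0.82), -0.01 against CD45+ cells (-0.81 to 0.79), 0.28 against CD31+ cells (-0.78 to 1.34) and 0.65 against CD146+ cells (-0.40 to 1.71). The sign itself changed with the scaling of the libraries against the first 3 groups.

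HHEX, a homeobox factor of the early liver and biliary bud that is also active in endothelium and blood, varied least of the 9. Its pBTSC values were 1207, 1029, 1007, 1093 and 1116 normalized counts in S2, S7, S11, S15 and S20, with a coefficient of variation of 7.23%. Across the 15 liver libraries it lay between 1517 and 1817 with a median of 1660 and a coefficient of variation of 5.08%. Although the step between the groups was small, no pBTSC library reached any liver library. The log2 fold change was -0.63 against CD45-/EpCAM+ cells (SE 0.09, adjusted p = 2.61e-05 from limma) and between -0.63 and -0.57 against all 5 groups, so that each passed the test but not the fold threshold. Without that threshold 16.5%, 23.1%, 15%, 9.09% and 9.79% of all genes passed as lower against CD45-/EpCAM+, CD45-/EpCAM-, CD45+, CD31+ and CD146+ cells. The size depends on the scale. When all libraries were brought to 1 total, the median of all genes moved from 0.08 to 0.39 against CD45-/EpCAM+ cells, and the HHEX difference came to -0.33 there (adjusted p = 0.018) and to -0.10 against CD45-/EpCAM- cells (adjusted p = 0.542), -0.27 against CD31+ cells (0.14) and -0.30 against CD146+ cells (0.0822). Relative to the median gene HHEX lay at -0.76 to -0.62 as deposited, a distance that rescaling leaves nearly as it was by construction, since it moves all genes alike.

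GATA4 has roles in hepatic endoderm, in the liver's stellate and sinusoidal endothelial cells and in the foregut. Its normalized counts were 621, 667, 794, 841 and 1017 in pBTSC libraries S2, S7, S11, S15 and S20. The lowest liver library, CD45-/EpCAM- S5, had 1489 and the highest, CD45-/EpCAM+ S13, had 3342. CD45-/EpCAM+ libraries S4, S9 and S19 had 1831, 1901 and 2696, CD45+ cells lay between 1695 and 3059 (median 2548), the CD31+ pair had 2633 and 2626, and the CD146+ pair 2713 and 2557. GATA4 was thus lower in all pBTSC libraries than in any liver library, by 1.61 on the log2 scale against CD45-/EpCAM+ cells (SE 0.21, adjusted p = 1.61e-05 from limma), or 3.05-fold. The log2 fold change was -1.32 against CD45-/EpCAM- cells, -1.60 against CD45+ cells and -1.76 against CD31+ as well as CD146+ cells, each with an adjusted p of 6.81e-04 or less. Left with S5 alone, the CD45-/EpCAM- comparison gave -0.94 with an adjusted p of 0.0279, which passes the test and misses the fold threshold.

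GATA6, its paralog and a factor of pancreatic and bile duct endoderm as well as of smooth muscle, did not follow GATA4. The pBTSC libraries S2, S7, S11, S15 and S20 had 1386, 1264, 1705, 1970 and 1927 normalized counts. Liver lay between 627.6 (CD45-/EpCAM- S14) and 1370 (CD45+ S3), and 7 of 15 liver libraries fell within the pBTSC range. Both CD45-/EpCAM- libraries, at 824 and 628, were below all pBTSC libraries, and GATA6 was higher in pBTSCs by 1.18 (SE 0.24, adjusted p = 6.75e-04 from limma). With S5 alone in that group the difference was 0.98 (adjusted p = 0.017), under the fold threshold. Against CD45-/EpCAM+ cells the difference was 0.59 (adjusted p = 0.0208), again under the fold threshold (22.2% of all genes passed as higher there without it), and against CD45+, CD31+ and CD146+ cells it was 0.40, 0.35 and 0.59, with adjusted p-values of 0.0991, 0.387 and 0.0724. Within the pBTSC group the 2 wild-type libraries had the highest values of both GATA factors, given here as a description of 3 H2B-GFP and 2 wild-type libraries.

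The balance of both pairs of paralogs was read within each library, where the scaling of the library cancels. The ratio of GATA4 to GATA6 normalized counts was 0.427 to 0.528 in pBTSCs and 1.27 to 4.67 in liver, with medians of 0.466 and 2.07. For ONECUT1 over ONECUT2 it was 0.497 to 1.13 in pBTSCs and 1.86 to 4.87 in liver, with medians of 0.658 and 3.67. Normalized counts are not divided by transcript length, so these ratios can be compared between libraries and do not say which paralog has more transcripts. Neither ratio overlapped between pBTSCs and liver, which shows an unequal difference of the 2 paralogs in each pair. They were chosen after the values of the single genes were known and carry no test.

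**Figure D3:**
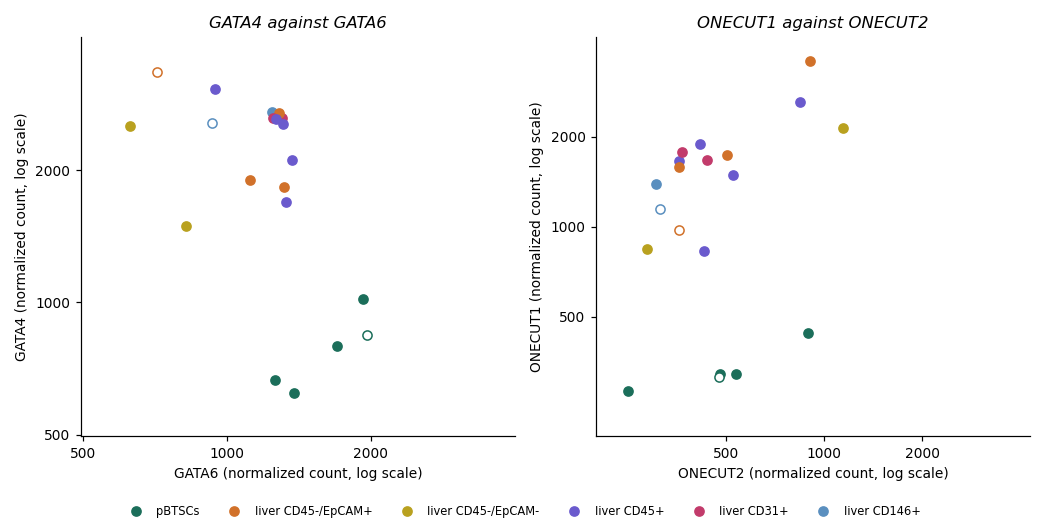
GATA4 against GATA6 (left) and ONECUT1 against ONECUT2 (right), as normalized counts on log axes, 1 point per library and open points for the shallow ones. The 5 pBTSC libraries form a separate band in both panels, low on the vertical axis and within or above the liver range on the horizontal one, apart from pBTSC library S20 with the lowest ONECUT2 value, 250.1.

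TBX3, a T-box factor needed for the growth of the liver bud and also active in mesenchyme, was nearly constant in pBTSCs, at 1169, 1072, 996, 999 and 1142 normalized counts in S2, S7, S11, S15 and S20. In liver it varied widely, from 159.1 in S5 to 1045 in S21. The CD45-/EpCAM+ libraries S4, S9, S13 and S19 had 403, 214, 209 and 591, and CD45+ cells ranged from 192.3 to 909 with a median of 489. Only S21, a CD31+ library, reached into the pBTSC range, the other CD31+ library being at 562 and the CD146+ pair at 549.9 and 900.2. TBX3 was higher in pBTSCs by 1.74 than in CD45-/EpCAM+ cells (SE 0.40, adjusted p = 0.00235 from limma), by 2.21 than in CD45-/EpCAM- cells (SE 0.50, adjusted p = 0.00161) and by 1.32 than in CD45+ cells (SE 0.38, adjusted p = 0.012). Differences of 0.49 from CD31+ cells (95% interval -0.56 to 1.54) and 0.61 from CD146+ cells (-0.44 to 1.66) did not pass. Left with S14 alone, CD45-/EpCAM- cells gave 1.67 with an adjusted p of 0.0656.

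ELF3 is an epithelial ETS factor of bile ducts, gut and pancreatic ducts. It was at 2084, 1050, 1242, 1394 and 623 normalized counts in pBTSC libraries S2, S7, S11, S15 and S20. In liver it spanned 232.4 in S14 to 1879 in S3, and 12 of the 15 liver libraries lay within the pBTSC range. Only the CD45-/EpCAM- pair, with 555 in S5 and 232.4 in S14, was below every pBTSC library, a difference of 1.72 (SE 0.46, adjusted p = 0.00524 from limma) that came to 1.10 with an adjusted p of 0.129 without S14. Against the other groups the log2 fold change was 0.29 (95% interval -0.48 to 1.07) for CD45-/EpCAM+, -0.01 (-0.74 to 0.72) for CD45+, 0.41 (-0.56 to 1.38) for CD31+ and 0.74 (-0.23 to 1.71) for CD146+ cells, and none passed. With runs of neighbouring label numbers as a term, the first of these was 0.48 (SE 0.17, adjusted p = 0.0327), which passes the test and misses the fold threshold. EPCAM moved with ELF3 in this respect, since the CD45-/EpCAM- libraries had 491 to 1090 normalized counts of EPCAM and the CD45-/EpCAM+ libraries 1205 to 1779. Its part in the difference was not tested.

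Set over all comparisons, ONECUT1 and GATA4 were called lower in pBTSCs against all 5 liver groups, as were 5.85% of the genes tested, and 0 of the 8 factors were called higher in all 5, as were 4.85%. Against all 15 liver libraries together, 3 factors lay lower in pBTSCs without overlap (ONECUT1, GATA4 and HHEX), beside 9.21% of all genes, and 0 lay higher, beside 11.9%. When the 6 group means of each of the 8 factors were put in order, 3 of the 40 steps between neighbours passed the test. These were the steps from pBTSCs up to the lowest liver group for ONECUT1, GATA4 and HHEX. For PDX1, ONECUT2, GATA6, TBX3 and ELF3 no neighbours in the order differed beyond their spread.

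The 5 pBTSC libraries were not uniform for these factors. S2 had the highest value of 6 of the 9 (PDX1, ONECUT1, ONECUT2, HHEX, TBX3 and ELF3), and S20 had the lowest value of 4 (PDX1, ONECUT1, ONECUT2 and ELF3). The gap was 2084 against 623 normalized counts for ELF3 and 893 against 250.1 for ONECUT2. S20 in turn had the highest GATA4, 1017, and the highest NKX6-1, 36.9. EPCAM ran alongside, highest in S2 at 2075 and lowest in S20 at 884 normalized counts, with 1145 in S7, 1364 in S11 and 1047 in S15. Whether a larger share of epithelium in S2 has a part in this was not tested. The summed level of 9 stellate cell, fibroblast and smooth muscle markers was 398980 to 1435018 in pBTSCs and 42294 to 176937 in liver, so that pBTSC libraries also carried mesenchymal transcripts. TBX3 and GATA6 are active in mesenchyme too, and the part of that list in their higher values was not tested.

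Among the sorted liver groups none of the 9 factors differed by the moderated F test of limma, where 4.98% of all genes passed. That share rests on single libraries, since the number of genes, 776, was 0 without S5 and 2771 without S17. The lowest adjusted p was that of ELF3, 0.126. At an unadjusted p under 0.05 the count was 4 (PDX1, GATA6, TBX3 and ELF3), beside 26.2% of all genes. A different grouping of the same 15 libraries separated the factors more. The label numbers fall into 5 runs, S2 to S5, S7 to S9, S11 to S14, S15 to S19 and S20 to S23, each opening with a pBTSC library, and the labels do not say what a run is. Within liver, with the sorted label as a term, 5 of 9 factors differed among runs (ONECUT1, ONECUT2, GATA4, GATA6 and ELF3), where 34.1% of all genes did. This test was chosen after the data had been seen. The adjusted p was 7.41e-04 for ONECUT1, 0.00136 for GATA4, 0.00188 for ELF3, 0.00273 for ONECUT2 and 0.0168 for GATA6, and 0.0646 for TBX3. In turn, with run as a term in the liver libraries alone, ELF3 differed among sorted labels (adjusted p = 0.0304), as did 0.212% of all genes.

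The share of the liver variance that lay between runs, against that between sorted labels, was 90.4% against 19.6% for ONECUT2, 85% against 9.65% for ONECUT1, 84.3% against 17.5% for GATA4 and 80.4% against 44.8% for TBX3. It was larger between runs for 6 of the 9 factors and larger between sorted labels for ELF3 (46% against 57.6%), PDX1 (12% against 47.9%) and NKX6-1 (22.5% against 59.3%). The PDX1 shares include the 0 of S22, where the floor is 156 normalized counts. Those of NKX6-1 rest on S21, the only liver library above its floor. Sorted labels and runs are partly confounded, since CD31+, CD146+ and CD45-/EpCAM- cells occur in some runs only. The shares are not adjusted for each other and overlap. ONECUT2 was at 846 to 1146 normalized counts in liver libraries S3 to S5, and at 285.9 to 527.5 in the other 12. GATA4 went the other way, with 1489 to 2111 in S3 to S5, 1695 to 1901 in S8 and S9 and 2516 to 3342 from S12 on. ONECUT1 was highest in S3 to S5 (2130 to 3579) and lowest in S12 to S14 (829.9 to 977), for all 3 sorted labels of those runs. TBX3 was at 159.1 to 489 in the 8 liver libraries up to S14, at 549.9 to 591 in S16 to S19 and at 900.2 to 1045 in S21 to S23. HHEX stayed between 1517 and 1817 throughout.

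**Figure D4:**
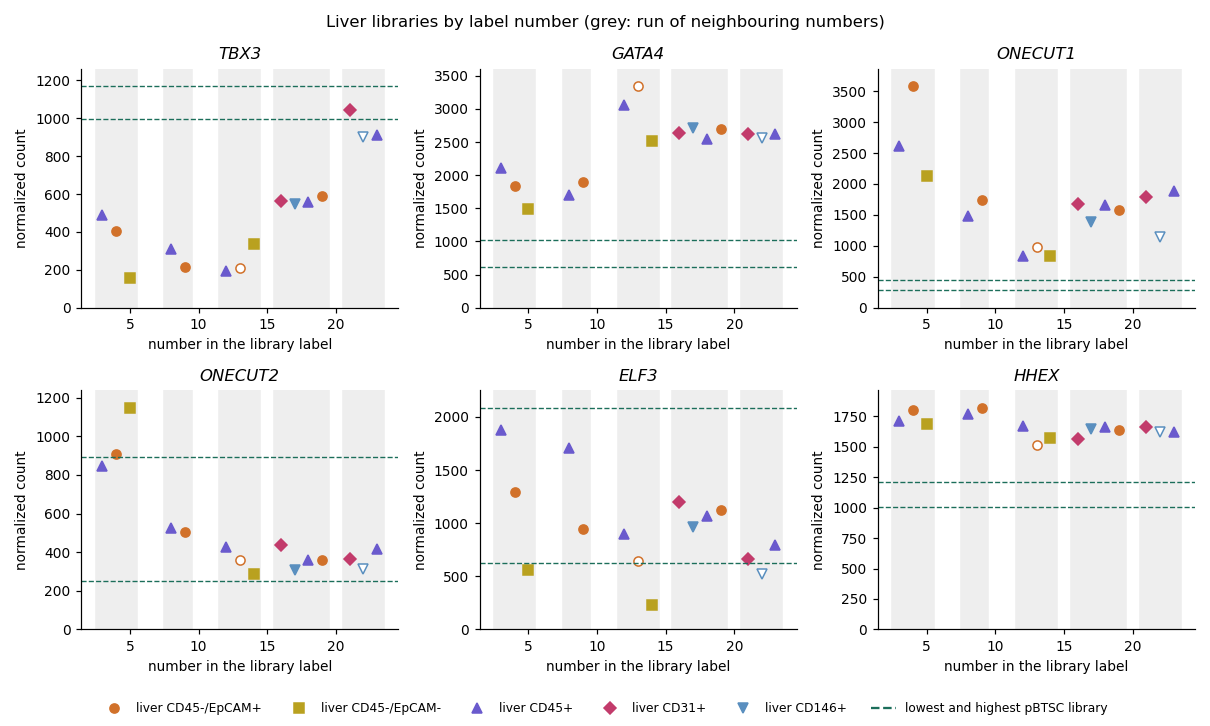
Normalized counts of 6 factors in the 15 liver libraries by label number, with grey bands for the runs of neighbouring numbers and open points for shallow libraries. Dashed lines are the lowest and highest pBTSC library. TBX3 reaches 900.2 to 1045 in S21 to S23 against 159.1 to 489 up to S14, and ONECUT2 is highest in S3 to S5.

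With run as a term over all 20 libraries TBX3 kept its calls, at 1.55 against CD45-/EpCAM+ cells (adjusted p = 0.00218 from limma), 1.94 against CD45-/EpCAM- cells (adjusted p = 0.00285) and 1.32 against CD45+ cells (adjusted p = 0.00441). Its difference was also taken within 2 stretches of label numbers, S2 to S14 and S15 to S23. The pBTSC libraries of the first are all from H2B-GFP piglets and those of the second from wild-type piglets. Genotype of the pBTSC donors and stretch therefore cannot be told apart here. Within S2 to S14, TBX3 was higher in pBTSCs than in CD45+ cells by 1.81 (adjusted p = 0.00812), 3 libraries against 3. Within S15 to S23, where 2 pBTSC libraries, of which S15 is shallow, stand against 2 of CD45+ cells, the difference was 0.58 (SE 0.39, adjusted p = 0.385). Whether both values differ was not tested. In the same stretches ONECUT1 was at -2.04 (adjusted p = 0.0187) and -2.57 (adjusted p = 1.21e-04) against CD45+ cells, and GATA4 at -1.68 (adjusted p = 0.00277) and -1.48 (adjusted p = 3.88e-04). CD45-/EpCAM- cells were sorted in S2 to S14 alone, where TBX3 was higher in pBTSCs by 2.21 (adjusted p = 0.00302). CD31+ and CD146+ cells were sorted in S15 to S23 alone, where the TBX3 differences were 0.48 (adjusted p = 0.479) and 0.60 (adjusted p = 0.298).

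A list of 40 other transcription factors of liver, gut and pancreas was read beside the 9. Of these 39 had a row and 28 were high enough to be tested. In the comparison with CD45-/EpCAM+ cells 9 of the 28 were called lower and 6 higher in pBTSCs, beside 10.3% and 14.8% of all genes. The median log2 fold change of the 28 was -0.54, beside 0.08 over all genes tested. The higher counts of all 5 comparisons include genes that reached the minimum for testing through pBTSCs alone, INSM1 and SOX2 among them. Such genes had to differ and lend the counts no support. The counts of lower and higher factors were 8 and 8 against CD45-/EpCAM- cells, beside 16.6% and 20% of all genes. They were 10 and 5 against CD45+ cells, beside 9.54% and 11%, and 8 and 4 against CD31+ cells, beside 7.62% and 6.73%. Against CD146+ cells they were 9 and 4, beside 7.75% and 14.5%. FOXA1, FOXA2, FOXA3, HNF4A, NR5A2 and CEBPA, which regulate hepatocyte genes among others, were among those lower against all 5 groups. The study also lists FOXA2 among its markers of human biliary tree stem cells. FOXA2 was at 92.6 to 183 normalized counts in pBTSCs and 253.8 to 745.8 in liver. HNF4A stood at 485.5 to 1366 normalized counts in pBTSCs and 1557 to 6468 in liver, a log2 fold change of -2.09 against CD45-/EpCAM+ cells (SE 0.33, adjusted p = 9.32e-05 from limma). FOXA3 was at 0 to 48.3 against 300.5 to 1158, and NR5A2 at 564 to 929 against 1817 to 2852. ONECUT1 and GATA4 were thus lower together with these regulators, in libraries where the 10 hepatocyte markers, HNF4A among them, were all lower too. Between liver libraries S3 to S5 and S12 to S14, ONECUT1 and GATA4 went opposite ways. ONECUT1 was higher in S3 to S5 (2130 to 3579 against 829.9 to 977), whereas GATA4 was lower there (1489 to 2111 against 2516 to 3342). CPS1, 1 of the 10 hepatocyte markers, was at 24777 to 93371 normalized counts in S3 to S5 and 5701 to 14051 in S12 to S14. It does not stand for the list, whose sum was 1899532 to 2160774 in the CD45-/EpCAM- pair S5 and S14. Nor did ONECUT1 follow CPS1 in every run. In S8 and S9 CPS1 was higher than in S3 and S5 (61340 and 80606 against 39817 and 24777). ONECUT1 was lower there (1486 and 1735 against 2612 and 2130). The part of hepatocyte transcripts in either difference from pBTSCs was not tested.

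GATA5, KLF5, SOX2 and INSM1 were called higher against all 5 liver groups. GATA5, the third gene of the endodermal GATA group, had 36.4 to 113 normalized counts in pBTSCs and 0 to 25.7 in liver. The 25.7 is the value of 1 read in shallow CD45-/EpCAM+ library S13. The log2 fold change of GATA5 was 3.08 against CD45-/EpCAM+ cells (SE 0.62, adjusted p = 8.22e-04 from limma), so that GATA4 was lower and GATA5 higher in pBTSCs in the same libraries. KLF5, a factor of proliferating epithelium, was at 769 to 2980 against 208.7 to 821.5. INSM1, an endocrine factor, was at 0 to 33.8 in pBTSCs and at or under the floor in all 15 liver libraries, and SOX2 at 25.1 (in S15, under its floor of 37.7) to 47.7 against 0 to 3.76. These last 2 reached the minimum for testing through pBTSCs alone. At the other end, ONECUT3, NKX6-2, PTF1A, NEUROG3, NEUROD1, PAX4 and CDX1 were, with INSM1, at or under the floor in every liver library, and ONECUT3 and PAX4 also in every pBTSC library. Of 9 pancreatic product genes with a row, INS, GCG, SST, PPY and CTRC were at or under the floor in all liver libraries. The summed level of the 9 was 51.9 to 211 in pBTSCs and 0 to 52.2 normalized counts in liver, where 52.2 is the value of 1 read in shallow CD146+ library S22.

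The genes whose levels ran most like each factor were found by Pearson correlation of log2(normalized count + 1) over the 17 deep libraries, as a description. Such correlations mix the step between pBTSCs and liver with variation inside liver, so the value over the 13 deep liver libraries is given beside each. GATA4 ran with STAB2, a scavenger receptor of sinusoidal endothelium (r = 0.98, and 0.879 in liver), with MRC1, the mannose receptor of macrophages and sinusoids (0.98 and 0.906), and with CX3CR1, a chemokine receptor (0.979 and 0.946). STAB2 stood at 40.6 to 987 normalized counts in pBTSCs and 5300 to 60522 in liver. ONECUT1 ran with ESRP2, an epithelial splicing factor (0.982 and 0.925), IYD (0.974 and 0.923) and HPN, a membrane protease (0.974 and 0.872). HHEX ran with PDZK1, CPS1 of the urea cycle and SERPINA1, the gene of alpha-1-antitrypsin (0.98, 0.98 and 0.979), but less so inside liver (0.751, 0.773 and 0.709).

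**Figure D5:**
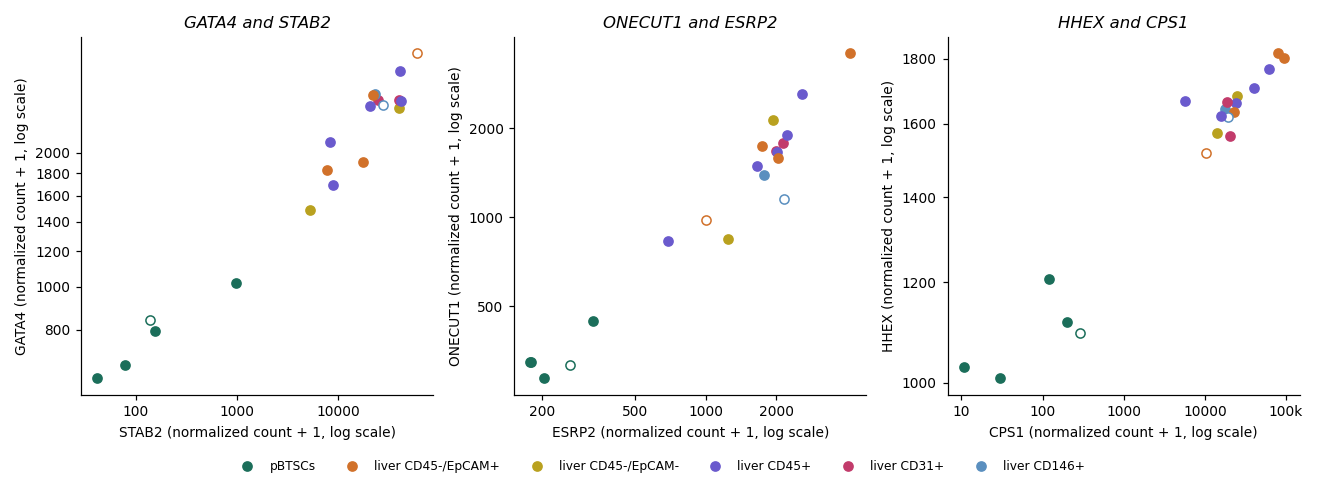
GATA4 with STAB2, ONECUT1 with ESRP2 and HHEX with CPS1, as normalized count + 1 on log axes, 1 point per library and open points for the shallow ones. The pBTSC libraries lie at the lower left in each panel, with STAB2 at 40.6 to 987 against 5300 to 60522 in liver.

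The factors whose levels overlapped between pBTSCs and liver had other neighbours. ONECUT2 ran with CDCP1 (r = 0.925, and 0.924 in liver), MFSD2A (0.898 and 0.895) and ELP2 (0.891 and 0.947), and ELF3 with LRRC8E (0.934 and 0.962), RAP1GAP (0.929 and 0.936) and RBBP8NL (0.924 and 0.929). GATA6 ran with SLC44A1 (0.954 and 0.95), PDGFD, a growth factor of the PDGF family (0.951 and 0.937), and TSPAN2 (0.946 and 0.96). TBX3 ran with NIPAL3 (0.955 and 0.925), PLXNA3 (0.951 and 0.918) and FARP2 (0.95 and 0.953). PDX1 ran with DEFB115, a beta-defensin gene (0.939 and 0.89), SLC38A11 (0.888 and 0.804) and ATG7 (0.887 and 0.845). NKX6-1 ran with RUNDC3B (0.952 and 0.759), ASTN1 (0.951 and 0.67) and FOXF2, a forkhead factor of mesenchyme (0.942 and 0.497), of which FOXF2 had 37.7 to 816 normalized counts in pBTSCs and 0 to 5.37 in liver. Since NKX6-1 was above its floor in S21 alone among liver libraries, its values within liver rest on that library. Among the 9 factors themselves, HHEX ran with ONECUT1 (r = 0.92) and GATA4 (r = 0.83) and against NKX6-1 (r = -0.86), over the same 17 libraries.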

How the data were processed

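Per the labels, RNA was extracted with Qiagen RNeasy and made into libraries with the TruSeq Stranded mRNA kit, and the submitters' processing notes name STAR, Salmon and DESeq2. What the authors deposited are normalized counts, a signal of at least 0 for each gene and library. Versions, genome build and annotation are not given in the sources used here, so no coordinates are printed. Groups follow the deposited labels. The 9 factors and all gene lists were chosen with earlier results of these data known.

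A pseudocount of 1, which understates the fold change of low genes, was added before taking log2. A linear model with 6 group means was then fitted by limma 3.58.1 (R 4.3.3, eBayes, trend) to the 15576 genes that had 10 or more normalized counts in 2 or more libraries. Only 65.8% to 87.3% of low values were whole reads to within 0.05 reads, so no count test was run. The closest replicates, pBTSC libraries S15 and S20, differed by 2.79 times counting noise, which is large in shallow S15. The closest deep pair, CD45+ libraries S18 and S23, differed by 11.5 times, and the furthest, CD45-/EpCAM+ libraries S4 and S19, by 97.8 times. The fit was tested on simulated data. The genes named are all 9 factors, listed transcription factors called against CD45-/EpCAM+ cells without overlap (at most 8 by size) or against all 5 groups, the 3 nearest genes of each factor, and the sorted antigens, and other names mark genes at the floor. Counts over the listed transcription factors include 2 genes that are not reported here. Other steps used Python 3.11.15 with numpy 2.4.6, pandas 2.3.3 and matplotlib 3.10.9.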

Additional observations from a re-analysis of the deposited data

Results flagged for a closer look

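Of the 27 groups of 4 or 5 libraries examined (9 factors in 3 groups), 4 held a library far from the others by Dixon's criterion, which chance alone gives to about 1 in 20. ONECUT1 in pBTSC library S2 was 443 normalized counts, against 283.6 to 323 in the other 4. GATA6 in CD45+ liver library S12 was 944, against 1267 to 1370 in the other 4. NKX6-1 was 1.2 in CD45+ library S3 and 0.941 in CD45-/EpCAM+ library S19, where the other libraries of these groups listed it at 0, and both values are at or under 3 reads. With all others at 0, any single value above 0 meets the criterion, so the rate of 1 in 20 does not apply to NKX6-1.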

How the results depend on the processing

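Depth limits all genes in S13, S15 and S22, PDX1 and NKX6-1 most, and ONECUT2 in S22 rests on 6 reads and TBX3 in S13 on about 8. Groups of 2 libraries limit the CD45-/EpCAM-, CD31+ and CD146+ comparisons, and the piglet of each liver library is not given. The labels give no replicate numbers to pair by, and the run of label numbers stood in as a term. Deviations of libraries in the same run had a median correlation of 0.179 (31 pairs), against -0.0258 for different runs (130 pairs). Other pseudocounts and filters, recomputed size factors, robust eBayes, array weights, rescaling to the same total, only the groups compared, run as a term, only S2 to S14 or S15 to S23, no shallow libraries and each library left out in turn were tried, together with no fold threshold, chosen after seeing the data. ONECUT1 and GATA4 kept their direction in every setting that gave a value. The edgeR test was not run since whole reads could not be recovered.

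The number of factors called, NKX6-1 included, was 4 against CD45-/EpCAM+ cells, beside 25.1% of all genes called in either direction. In S15 to S23 only S19 stands for that group, so no count is given. Against CD146+ cells the number was 4, beside 22.2%, and 2 with array weights as well as in S15 to S23. Against CD45-/EpCAM- cells it was 6, beside 36.6%, and up to 7 when 1 library was left out. Leaving out S5 or S14 leaves a single library there, so no count is given. NKX6-1 had to differ and lends these counts no support. Of the other 8 factors, 1 was called higher and 2 lower against CD45-/EpCAM+ as well as CD146+ cells. Against CD45-/EpCAM- cells 3 of the 8 were higher and 2 lower. Among the liver groups 0 factors differed, 1 after rescaling (GATA6, adjusted p = 0.0321), 1 with run as a term (ELF3, 0.0221), and 0 to 1 when 1 library was left out (PDX1 without S17, adjusted p = 5.53e-06, which leaves S22 at 0 as the only CD146+ library). With array weights the CD146+ differences of ONECUT1 (-1.86, adjusted p = 0.0568) and NKX6-1 (3.97, 0.0627) missed the threshold, and after rescaling GATA4 against CD45-/EpCAM- cells was -0.84 (0.0394). The cause was not tested.

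Signs turned for values near 0 that were called in no setting, although ELF3 against CD45-/EpCAM+ cells had an adjusted p of 0.0327 with run as a term, at 0.48. ONECUT2 against CD45-/EpCAM+ cells was 0.29 after rescaling, 0.03 with array weights, 0.12 with run as a term and 0.16 in S2 to S14. Against CD45-/EpCAM- cells it was 0.25, 0.12 with run as a term and 0.10 in S2 to S14. Against CD45+ cells it was 0.24 after rescaling, 0.13 with array weights and 0.09 in S2 to S14, and against CD31+ cells -0.14 with run as a term and -0.21 in S15 to S23. With 1 library left out it ran from -0.23 to 0.28 (CD45-/EpCAM+), -1.23 to 0.77 (CD45-/EpCAM-) and -0.23 to 0.23 (CD45+). ELF3 was -0.27 in S15 to S23 against CD45-/EpCAM+ cells, and against CD45+ cells 0.24 after rescaling, 0.13 with array weights and 0.02 in S15 to S23. With 1 library left out ELF3 ran from -0.21 to 0.22 against CD45+ and from -0.02 to 0.83 against CD31+ cells.

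Over all genes, the number called against CD45-/EpCAM+ cells was 3905 and came to 1322 in S15 to S23, against CD45+ cells 3202 and 1860, and against CD31+ cells 2236 and 3805 with array weights. Against CD146+ cells it was 3462, 1683 with array weights, 1554 without the shallow libraries and 2030 in S15 to S23. The share of higher calls moved with rescaling from 59% to 72.6% (CD45-/EpCAM+), 54.7% to 75.4% (CD45-/EpCAM-), 53.6% to 66.8% (CD45+), 46.9% to 61.7% (CD31+) and 65.1% to 76% (CD146+). The F test among liver groups called 776 genes, and 9 in liver alone, 24 with run as a term, 15 in S2 to S14 and 0 in S15 to S23. With 1 library left out it called 0 (without S5), 409 (S16), 1207 (S12), 1270 (S14), 1544 (S19) and 2771 (S17), and otherwise within 1.5 times.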
